A study of Mus musculus with 9 samples.

Results

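The genes described are 7 subunits of the GABA-A receptor, Gabra2, Gabra3, Gabra4, Gabra5, Gabrb1, Gabrb2 and Gabrd, out of 43629 genes in the deposited counts. They were taken by gene name, by a rule that uses no measured value, but they were chosen with earlier results of these data known. All 7 passed the filter on low counts. Levels come from RNA-seq of frontal cortex gray matter, depleted of ribosomal RNA, from 4 Neat1-/- mice aged 2, 3, 3 and 4 months and 5 WT mice aged 2, 2, 3, 4 and 4 months. All 9 mice were female C57BL/6 animals. Neat1 is the long noncoding RNA on which nuclear paraspeckles are built. In the knockout allele a lacZ cassette followed by signals that end the transcript interrupts Neat1 close to where it begins. The WT mice were of the corresponding background, and whether any were littermates is not given in the sources used here. Each library is 1 replicate of its genotype, and the study counts its samples as mice, so the p-values measure the spread between mice together with that of library preparation.

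The GABA-A receptor is the main fast inhibitory receptor of the cortex. It is a chloride channel opened by GABA and assembled from several subunits around a central pore, usually alpha and beta subunits together with a gamma or delta subunit. GABA binds where an alpha meets a beta subunit. The alpha subunit sets much of the receptor's sensitivity to GABA and to drugs such as benzodiazepines, and the delta subunit marks receptors that lie outside synapses and carry tonic inhibition. The question asked here was whether the RNA of these subunits differed between Neat1-/- and WT cortex.

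The 7 genes lie on 5 chromosomes (GRCm38, GENCODE). Gabra2 (chr5:70957597-71095849), Gabra4 (chr5:71569749-71658308) and Gabrb1 (chr5:71658113-72149037) lie in one cluster, Gabra2 and Gabra4 on the minus strand and Gabrb1 on the plus strand. Gabra4 and Gabrb1 start head to head, with 46 bp of exon in common on opposite strands. Gabra5 (chr7:57407672-57510059, minus strand) shares 148 bp of exon, 4.98% of its own, with the antisense gene Gm9962. Gabrb2 (chr11:42419757-42629028, plus strand), Gabra3 (chrX:72432681-72656848, minus strand) and Gabrd (chr4:155384980-155398112, minus strand) share no exon with another gene. The strand setting of the counting is not stated, so reads in the shared exons of Gabra4, Gabrb1 and Gabra5 cannot be assigned with certainty.

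The promoter table from RefSeq (GRCm38.p6) held 10 starts for 6 of the 7 genes. Gabra2 and Gabra3 are shown because their levels had the closest relation of any pair among the 7, described further on, while the 250 bases before their starts differ in base composition. In Gabra2 (chr5:71095850-71096099, minus strand) capitals mark each CG. In Gabra3 (chrX:72656920-72657169, minus strand) capitals mark the letters TTTATA, which read TATAAA on the other strand.
Gabra2: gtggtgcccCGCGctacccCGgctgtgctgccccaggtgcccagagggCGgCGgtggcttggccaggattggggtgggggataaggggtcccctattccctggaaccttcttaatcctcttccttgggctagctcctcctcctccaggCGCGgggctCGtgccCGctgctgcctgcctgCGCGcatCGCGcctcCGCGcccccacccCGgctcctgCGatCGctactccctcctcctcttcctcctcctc
Gabra3: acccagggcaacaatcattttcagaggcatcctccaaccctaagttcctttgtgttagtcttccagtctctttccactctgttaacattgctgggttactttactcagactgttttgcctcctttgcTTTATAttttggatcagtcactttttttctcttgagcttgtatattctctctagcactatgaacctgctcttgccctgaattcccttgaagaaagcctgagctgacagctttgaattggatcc
The Gabra2 window held 18 CG dinucleotides and 70% G or C, and the Gabra3 window held 0 and 42.4%. Over all 32851 starts in the table the median was 6 CG dinucleotides and 52.4% G or C, and 7.87% of the windows held no CG. The motif TATAAA was found on either strand in 12.4% of all windows, and GGGCGG in 32.7%. GGGCGG was present in the window of Gabra2 and not in that of Gabra3. A match is a run of letters in a window and no evidence of binding.

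Over the whole series, the libraries held 52629603 to 64648856 counts for Neat1-/- mice, against 51276067 to 62819932 for WT mice, and the 7 genes had between 2495 and 20356 counts per library. Levels are given as CPM, the counts relative to library size scaled with TMM factors. Neat1 itself, which checks the labels, was at 8.14 ± 1.18 CPM (SD, n = 4) in Neat1-/- mice and 81.5 ± 23.0 CPM (SD, n = 5) in WT mice. WT replicates 3 and 4 were closer to each other than to the other WT libraries, with a chi-square per degree of freedom of 9.93 over 13185 genes, against 17.1 to 20.4 for their other WT pairs. Pairs among WT replicates 1, 2 and 5 were as close, at 9.22 to 12.4. Neat1-/- replicate 4 stood apart from its genotype, at 14.6 to 21.7 with the other Neat1-/- libraries, against 7.57 to 8.96 among those.

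None of the 7 genes passed the test between genotypes. At an adjusted p under 0.05 by edgeR's quasi-likelihood test, with age as a covariate, 0 of the 7 were called, against 0.0709% of the 19753 genes tested. At an unadjusted p under 0.05 the count was also 0 of 7, against 8.3% of all genes. DESeq2 and limma gave 0 of 7 at either threshold, where they called 0.385% and 0.111% of all genes at the adjusted one. Without WT replicates 3 and 4 the count at an unadjusted p was again 0 of 7, against 1438 of all genes. The CPM of Neat1-/- and WT mice overlapped for all 7, while the genotypes did not overlap for 2.67% of genes. The 7 genes together made 856.9 to 877 CPM across the Neat1-/- mice, against 840.6 to 886.4 CPM across the WT mice. In bulk tissue, fewer cells of a type and less RNA per cell cannot be told apart.

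**Figure D1:**
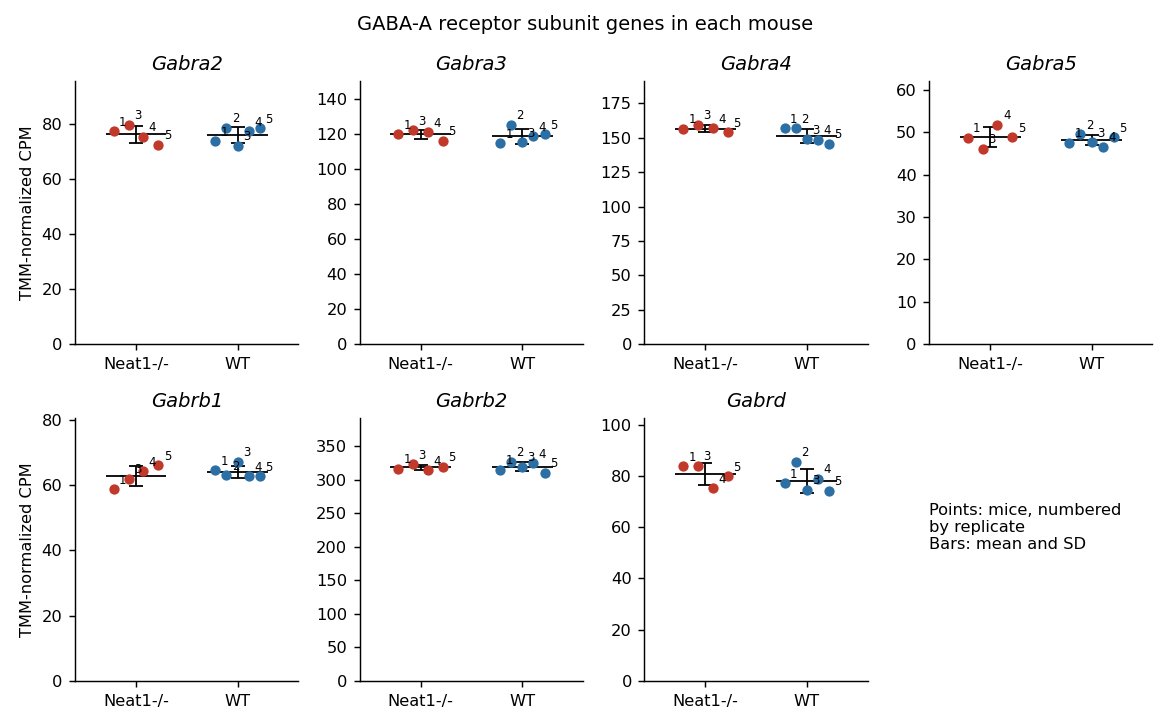
TMM-normalized CPM (vertical axes, from 0) of each of the 7 subunit genes in 4 Neat1-/- mice (red, left) and 5 WT mice (blue, right); each point is a mouse with its replicate number, and bars show the mean and SD. The points of both genotypes overlap in every panel, and for Gabrb2 all 9 mice lie between 311 and 327 CPM.

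The alpha subunits are described first. Gabra2 encodes a subunit known for its place at the axon initial segment of principal neurons. It had 77.3, 79.7, 75.4 and 72.5 CPM in Neat1-/- mice, against 73.8, 78.6, 72.1, 77.4 and 78.4 CPM in WT mice. The lowest and the highest mouse came from different genotypes, and the ranges were nearly the same. The mean was 76.2 ± 3.04 CPM (SD, n = 4) in Neat1-/- mice and 76.1 ± 2.93 CPM (SD, n = 5) in WT mice, and the log2 fold change was 0.00 (standard error 0.038, 95% interval -0.08 to 0.09, edgeR adjusted p = 0.992).

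Gabra3 encodes an alpha subunit that in cortex is known from the deeper layers. Its level was 120.0, 122, 121 and 116 CPM in Neat1-/- mice, against 115, 125, 115, 119 and 120.0 CPM in WT mice. All 4 Neat1-/- mice lay inside the WT range. It averaged 119.8 ± 2.58 CPM (SD, n = 4) in Neat1-/- mice and 119 ± 4.26 CPM (SD, n = 5) in WT mice. The log2 fold change was 0.01 (standard error 0.035, 95% interval -0.06 to 0.09, edgeR adjusted p = 0.936).

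Gabra4 encodes the alpha subunit that often pairs with delta in receptors outside synapses. Its values were 157, 159, 157 and 154 CPM in Neat1-/- mice, against 157, 157, 149, 149 and 146 CPM in WT mice. Replicates 1 and 2 of the WT mice, both 2 months old, reached the level of the Neat1-/- mice, and WT replicates 3, 4 and 5 lay below all 4 Neat1-/- mice. Among the Neat1-/- mice, replicate 5, the one aged 2 months, was instead the lowest, at 154 CPM. The means were 157 ± 2.24 CPM (SD, n = 4) in Neat1-/- mice and 151 ± 5.24 CPM (SD, n = 5) in WT mice. Of the 7 genes it had the lowest p: its log2 fold change was 0.05 (standard error 0.031, 95% interval -0.02 to 0.12, edgeR adjusted p = 0.662), and an exact permutation test of the CPM (two-sided, over every split of the 9 mice, smallest possible p = 0.00794) gave p = 0.127.

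Gabra5, a subunit known best from hippocampus and from extrasynaptic receptors, had the lowest counts of the 7, at 2495 to 3175 reads per library. It had 48.7, 46.2, 51.8 and 48.9 CPM in Neat1-/- mice, against 47.5, 49.6, 47.7, 46.6 and 48.9 CPM in WT mice. The highest and the lowest values were both in Neat1-/- mice. Means were 48.9 ± 2.28 CPM (SD, n = 4) in Neat1-/- mice and 48.1 ± 1.19 CPM (SD, n = 5) in WT mice, and the log2 fold change was 0.02 (standard error 0.040, 95% interval -0.06 to 0.11, edgeR adjusted p = 0.884).

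Gabrb1 encodes a beta subunit, the partner of alpha at the GABA site, and had the lowest level per length of the 7. Its level was 58.9, 62.0, 64.4 and 66.1 CPM in Neat1-/- mice, against 64.5, 63.1, 67.2, 62.8 and 62.7 CPM in WT mice. Replicate 1 of the Neat1-/- mice was the lowest of all 9 mice. The mean was 62.8 ± 3.13 CPM (SD, n = 4) in Neat1-/- mice and 64.1 ± 1.91 CPM (SD, n = 5) in WT mice. It was one of 2 genes of the 7 with a negative log2 fold change, at -0.03 (standard error 0.040, 95% interval -0.11 to 0.06, edgeR adjusted p = 0.851).

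Gabrb2, a beta subunit widespread in the adult brain, had the highest level per length of the 7. It had 316, 324, 315 and 319.6 CPM in Neat1-/- mice, against 315, 327, 319.6, 325 and 311 CPM in WT mice. The highest mouse was 1.05 times the lowest. It averaged 319 ± 4.02 CPM (SD, n = 4) in Neat1-/- mice and 319.5 ± 6.85 CPM (SD, n = 5) in WT mice, and its log2 fold change was -0.00 (standard error 0.028, 95% interval -0.07 to 0.06, edgeR adjusted p = 0.978).

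Gabrd encodes the delta subunit of tonic receptors. Its values were 83.8, 83.9, 75.1 and 79.8 CPM in Neat1-/- mice, against 77.1, 85.5, 74.6, 78.8 and 74.2 CPM in WT mice. The spread was the widest of the 7, with the highest mouse 1.15 times the lowest, and both genotypes covered most of it. The mean was 80.6 ± 4.19 CPM (SD, n = 4) in Neat1-/- mice and 78.1 ± 4.59 CPM (SD, n = 5) in WT mice. The log2 fold change was 0.05 (standard error 0.044, 95% interval -0.05 to 0.14, edgeR adjusted p = 0.777), and its upper bound, 1.10-fold, was the bound farthest from no change among the 7 genes. No p of the exact permutation test on any of the 7 was below that of Gabra4.

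**Figure D2:**
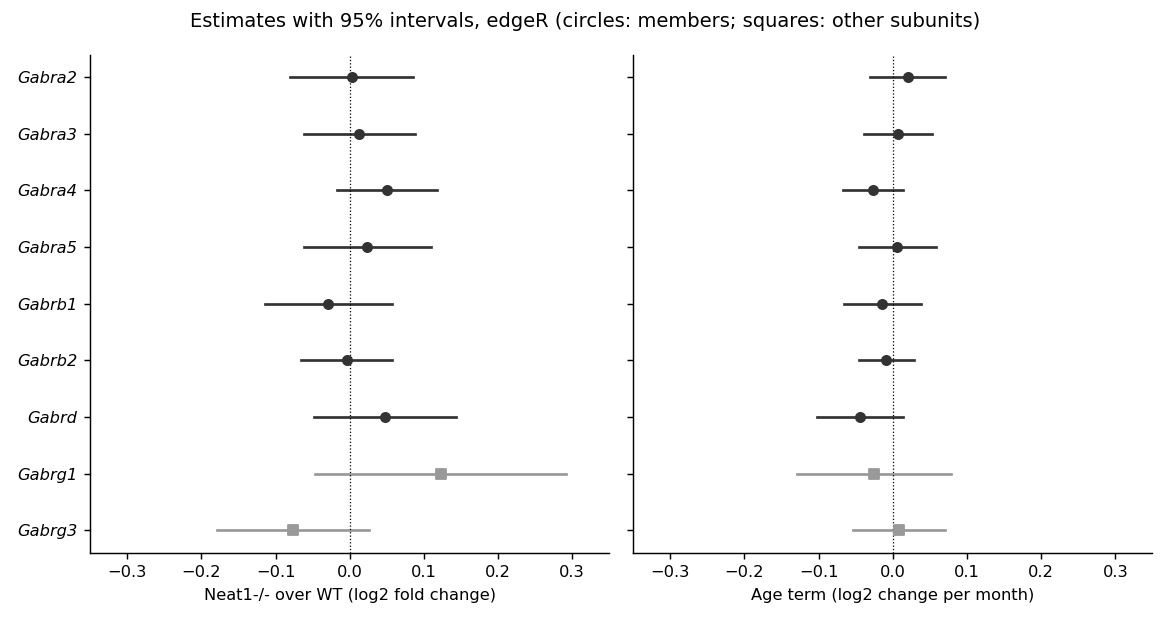
edgeR estimates with 95% intervals for the 7 subunit genes (black circles) and for Gabrg1 and Gabrg3 (gray squares): Neat1-/- over WT as a log2 fold change (left) and the age term as a log2 change per month (right). Every interval includes 0, and those of the 7 genes for genotype stay between -0.11 and 0.14.

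The differences of the 7 genes were small beside those of other genes, but these were not matched for level. The 7 averaged 48.5 to 319 CPM over the 9 mice, while the genes compared below reached down to 10 CPM or less. The median size of the log2 fold change, sign left aside, was 0.02 over the 7 genes, 0.07 over all tested genes and 0.04 over the 9973 tested genes with a mean of at least 10 CPM. Of the 7, 5 had a positive log2 fold change, as did 49.88% of all tested genes. The median of the 7 was 0.01, and that of all tested genes was -0.00023. The coefficient of variation over the 9 mice had a median of 3.48% for the 7 genes and 4.88% for the genes of at least 10 CPM. It was 1.71% for Gabrb2, lower than in all but 0.662% of those genes, and 5.50% for Gabrd, which stood at the 61.1 percentile.

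Age gave no call either. At an adjusted p under 0.05 for age, edgeR called 0 of the 7 genes and 0% of all 19753 genes. At an unadjusted p under 0.05 it called 0 of the 7, against 5.98% of all genes. By other tools, DESeq2 called 4 genes for age at the adjusted threshold and limma 1, with 0 of the 7 among them in both. The estimate farthest from 0 was that of Gabrd, -0.04 on the log2 scale per month (standard error 0.027, unadjusted p = 0.125, edgeR adjusted p = 0.830). Gabra4 followed with -0.03 per month (unadjusted p = 0.182, edgeR adjusted p = 0.835).

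Levels of different genes can be compared only per length. Over the 9 mice, the CPM per kb of exon was 50.2 ± 0.858 (SD, n = 9) for Gabrb2, 30.4 ± 0.878 for Gabra3, 27.5 ± 1.52 for Gabrd, 25.3 ± 0.795 for Gabra4, 16.3 ± 0.566 for Gabra5, 9.96 ± 0.365 for Gabra2 and 4.59 ± 0.176 for Gabrb1. Neighbours in that order did not overlap over the 9 mice, except for Gabra3 with Gabrd and Gabrd with Gabra4. With the longest coding transcript as the length, Gabrd (41.2) and Gabra4 (37.4) stood above Gabra3 (32.6), and the rest of the order was the same.

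**Figure D3:**
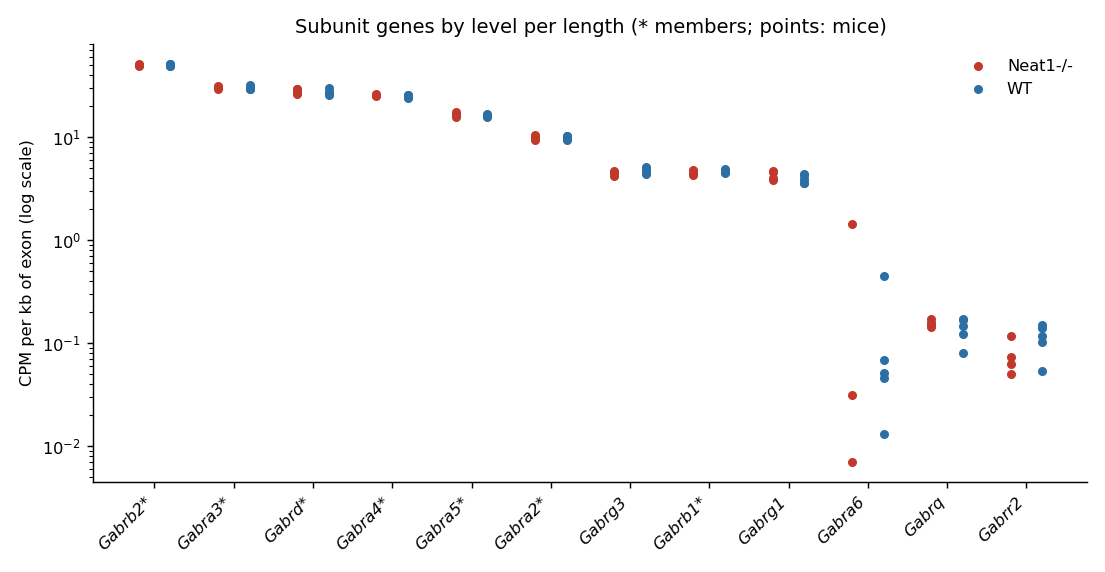
CPM per kb of exon (log axis) of the 7 genes and of the other subunit genes described with the most counts, in order of their mean over 9 mice; points are mice, Neat1-/- in red at the left of each gene and WT in blue at its right, asterisks mark the 7 genes described, and values of 0 are not drawn. Gabrb2 stands at 50.2 and Gabrb1 at 4.59, and Gabra6 is spread over more than a log unit.

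How the 7 genes varied together was compared over the 9 mice, in 21 pairs. Pearson's r was positive in 13 pairs and negative in 8, with a median of 0.14. No pair passed after adjustment over the 21, and 2 had an unadjusted permutation p under 0.05. Gabra2 and Gabra3 gave r = 0.84 (permutation p = 0.00587, adjusted p = 0.123) and Spearman's rho = 0.78 (permutation p = 0.0172, adjusted p = 0.181). Without the 2 mice farthest from the Gabra2 median r was 0.75, with the genotype means removed 0.84, and without WT replicates 3 and 4 it was 0.82. Gabra2 and Gabrb1, which lie in the same cluster of genes, went in opposite directions, at r = -0.76 (permutation p = 0.0125, adjusted p = 0.131) and rho = -0.78 (permutation p = 0.0172, adjusted p = 0.181). Without the 2 farthest mice r was -0.46, so that this relation rested in part on them, and with the genotype means removed it was -0.79.

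**Figure D4:**
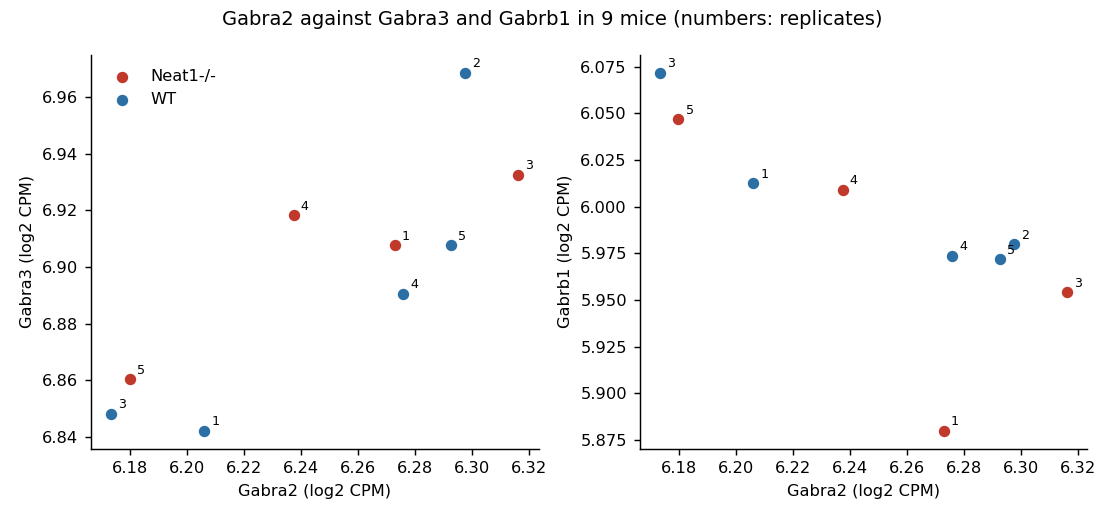
Log2 CPM of Gabra2 (horizontal) against Gabra3 (left) and Gabrb1 (right) in 4 Neat1-/- mice (red) and 5 WT mice (blue), numbered by replicate. Gabra3 is higher where Gabra2 is higher (r = 0.84) and Gabrb1 is lower (r = -0.76), with both genotypes mixed along each trend.

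Across the 9973 genes of at least 10 CPM, the genes whose log2 CPM was most alike over the 9 mice were Neu1 for Gabra2 (r = 0.91), D17H6S53E for Gabra3 (r = 0.95), Sox4 for Gabra4 (r = 0.91), Zbtb33 for Gabra5 (r = 0.96), Uri1 for Gabrb1 (r = 0.94), Kcnk4 for Gabrb2 (r = 0.89) and Med16 for Gabrd (r = 0.93). These are the highest of 9973 values each and are a description of these 9 libraries. By plan only genes outside the 7 were listed here, and the highest r within the 7 was 0.84, for Gabra2 and Gabra3.

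Of 9 other GABA-A receptor subunits analysed, 4 passed the filter and 0 of those were called, with 0 at an unadjusted p under 0.05 and 0 by DESeq2 or limma at the adjusted threshold. The log2 fold change was 0.12 (95% interval -0.05 to 0.29) for Gabrg1 and -0.08 (95% interval -0.18 to 0.03) for Gabrg3, both gamma subunits. The low-count genes Gabrq and Gabrr2 had 0.19 (95% interval -0.33 to 0.71) and -0.57 (95% interval -1.47 to 0.33). The 5 that did not pass were Gabra6, Gabre, Gabrp, Gabrr1 and Gabrr3, at 1 to 316 counts over all 9 libraries.

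Gabra6, the alpha subunit that marks cerebellar granule cells, was seen mainly in 2 mice. It had 221 counts (3.60 CPM) in Neat1-/- replicate 4 and 63 counts (1.12 CPM) in WT replicate 4, and 0 to 0.172 CPM in the other 7 mice. Of 14 further genes known from the cerebellum, chosen after these values were seen, 11 were highest in Neat1-/- replicate 4. WT replicate 4 was above the other 7 mice for 6 of the 14, by little for Cbln1 (4.13 CPM, with 4.13 CPM the highest of the 7), and below all 7 for 3. Those 3 were Tfap2b (0.356 CPM in WT replicate 4, against 0.547 to 0.821 CPM in the 7), Zic1 (9.15 CPM, against 12.5 to 16.8 CPM) and Zic2 (5.31 CPM, against 7.20 to 10.6 CPM), all transcription factors. Cbln3, a gene of granule cells, was at 4.92 CPM in Neat1-/- replicate 4, 1.83 CPM in WT replicate 4 and 0.327 to 0.707 CPM in the others. Fat2, also of granule cells, was at 8.30 CPM in Neat1-/- replicate 4, 2.46 CPM in WT replicate 4 and 0.865 to 2.01 CPM in the others. Granule cells also express Gabrd, which in Neat1-/- replicate 4 was at 75.1 CPM, the lowest of its genotype. The SD of Gabrd in Neat1-/- mice was 4.19 CPM. The level of Gabra6 does not give how much Gabrd RNA granule cells would bring. A part of granule cells in the Gabrd values was not tested. Without both replicates numbered 4, 0 of the 7 genes were called, against 10 of all genes.

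**Figure D5:**
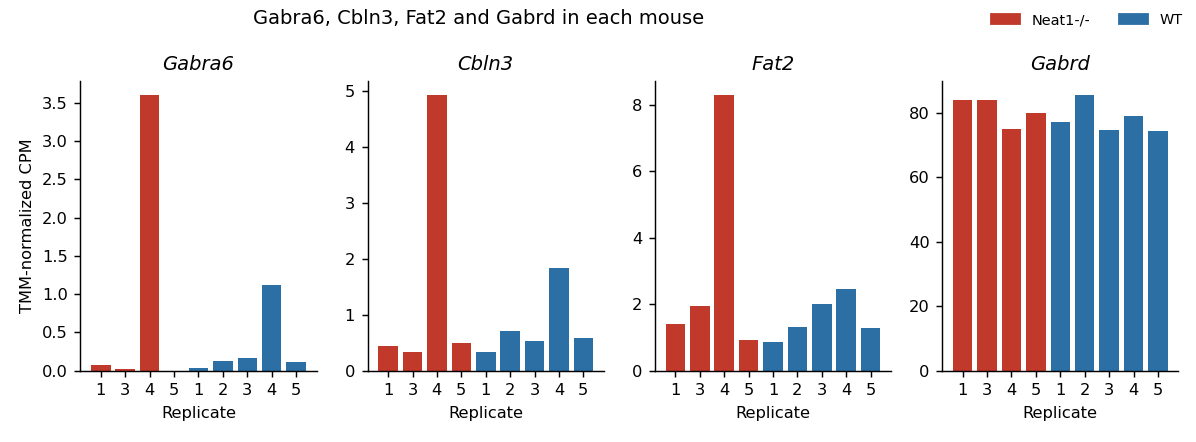
TMM-normalized CPM of Gabra6, Cbln3, Fat2 and Gabrd in each mouse; bars are mice by replicate number, Neat1-/- in red at the left and WT in blue at the right. Gabra6 reaches 3.60 CPM in Neat1-/- replicate 4 and 1.12 CPM in WT replicate 4. Gabrd lies between 74.2 and 85.5 CPM in all 9.

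Genes that work with the receptor were counted from lists written with earlier results of these data known. Of genes for anchoring, assembly and trafficking of GABA-A receptors, 21 were tested, 0 were called, and 1 had an unadjusted p under 0.05, against 8.3% of all genes, with a median log2 fold change of 0.01 for the list. That gene was Slitrk3, which encodes an adhesion protein of inhibitory synapses, at 63.4 ± 1.52 CPM (SD, n = 4) in Neat1-/- mice and 59.7 ± 3.69 CPM (SD, n = 5) in WT mice. Its log2 fold change was 0.09 (unadjusted p = 0.0301, edgeR adjusted p = 0.580), and the unadjusted count was 0 without WT replicates 3 and 4. Of 7 genes for GABA synthesis, release, uptake and breakdown, 0 were at either threshold, with a median of 0.02. Gad1, which makes GABA, had 337 ± 9.26 CPM (SD, n = 4) in Neat1-/- mice and 332 ± 13.6 CPM (SD, n = 5) in WT mice, and Abat, which breaks it down, 269 ± 8.21 CPM (SD, n = 4) in Neat1-/- mice and 269.8 ± 15.9 CPM (SD, n = 5) in WT mice. Of 5 genes of the GABA-B receptor, the metabotropic receptor for GABA, and its partners, 0 were at either threshold, with a median of -0.04, and without WT replicates 3 and 4 an unadjusted p under 0.05 was reached by 2, both lower. Gabbr1 had a log2 fold change of -0.01 (unadjusted p = 0.607, edgeR adjusted p = 0.900) and Gabbr2 of -0.05 (unadjusted p = 0.0947, edgeR adjusted p = 0.647). Of 4 glycine receptor subunits, relatives of the GABA-A receptor, 0 were at either threshold, with a median of -0.06. Glrb had -0.02 (unadjusted p = 0.639, edgeR adjusted p = 0.910) and Glra2 0.01 (unadjusted p = 0.905, edgeR adjusted p = 0.982).

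Chloride and bicarbonate handling sets the current that the receptor carries. Of its 10 tested genes 0 were called by edgeR, DESeq2 or limma. At an unadjusted p under 0.05, 4 of the 10 had lower values in Neat1-/- mice, against 4.03% of all genes, with a median log2 fold change of -0.06. Slc12a2, the NKCC1 transporter that brings chloride into cells, had 98.5 ± 5.95 CPM (SD, n = 4) in Neat1-/- mice and 109.5 ± 6.01 CPM (SD, n = 5) in WT mice, a log2 fold change of -0.15 (unadjusted p = 0.00953, edgeR adjusted p = 0.543). Car2, a carbonic anhydrase, had 111 ± 9.41 CPM (SD, n = 4) in Neat1-/- mice and 124 ± 15 CPM (SD, n = 5) in WT mice and a log2 fold change of -0.16 (unadjusted p = 0.0122, edgeR adjusted p = 0.543). The kinases Oxsr1 and Wnk1, which act on chloride transporters, had -0.08 (unadjusted p = 0.0209, edgeR adjusted p = 0.569) and -0.11 (unadjusted p = 0.0284, edgeR adjusted p = 0.580). Without WT replicates 3 and 4, 1 of the 10 was lower at an unadjusted p under 0.05, and without both replicates numbered 4 the count was 3. Slc12a2 and Car2 are also expressed by oligodendrocytes, and the summed CPM of 8 mature oligodendrocyte markers was 1841 to 2816 across the Neat1-/- mice, against 2154 to 3357 across the WT mice, with 4 of the 8 lower and 0 higher at an unadjusted p, and 2 lower without WT replicates 3 and 4 or 1 without both replicates numbered 4. Their part in these values was not tested.

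The tissue label was compared with markers of cell types and regions. The 12 markers of cortical glutamatergic neurons summed to 2719 to 2866 CPM in Neat1-/- mice, against 2620 to 2887 CPM in WT mice, and the 16 of GABAergic interneurons to 841.9 to 880.3 CPM in Neat1-/- mice, against 866.1 to 942.2 CPM in WT mice. Of the interneuron markers, 1 was higher and 1 lower at an unadjusted p, against 4.27% and 4.03% of all genes, and 0 were higher and 2 lower without WT replicates 3 and 4. The log2 fold change was 0.23 (unadjusted p = 0.0482, edgeR adjusted p = 0.599) for the neuropeptide gene Tac1 and -0.11 (unadjusted p = 0.0239, edgeR adjusted p = 0.580) for Cck, also a neuropeptide gene. Cck averaged 236 CPM in Neat1-/- mice and 255 CPM in WT mice, so the sums of the interneuron list rest in part on this gene. Markers of hippocampus summed to 109.8 to 123.6 CPM in Neat1-/- mice, against 115 to 122.7 CPM in WT mice, and those of striatum to 202.1 to 245.3 CPM in Neat1-/- mice, against 203.8 to 287.4 CPM in WT mice. Those of thalamus summed to 65.8 to 71.8 CPM in Neat1-/- mice, against 69.1 to 73.4 CPM in WT mice. Of 6 oligodendrocyte progenitor markers, 3 were lower at an unadjusted p, against 4.03% of all genes. The other 3, Pdgfra, Cspg4 and Sox10, did not reach that threshold, and without WT replicates 3 and 4 the count lower was 4 of 6. By flow cytometry the study took cells of lower Olig2 as mature oligodendrocytes, so Olig2 does not mark progenitors alone. edgeR gave log2 fold changes of -0.26 (unadjusted p = 0.000348, edgeR adjusted p = 0.222) for Olig1 and -0.40 (unadjusted p = 0.000507, edgeR adjusted p = 0.264) for Olig2, both transcription factors of the lineage, and of -0.27 (unadjusted p = 0.0134, edgeR adjusted p = 0.543) for the receptor gene Gpr17. At the adjusted threshold DESeq2 called Olig1 (adjusted p = 0.00322) and Olig2 (adjusted p = 0.00534), where it called 0.385% of all genes. edgeR without a filter on low counts also called Olig1 (adjusted p = 0.00806) and Olig2 (adjusted p = 0.0102), and limma on the deposited log2 values called Olig1 (adjusted p = 0.0458). Across the lists of astrocytes, microglia and endothelial cells, edgeR called 0 genes, with 1 of 10, 3 of 7 and 1 of 6 higher at an unadjusted p, against 4.27% of all genes. Of the glutamatergic markers 3 of 12 were higher, of the striatal 1 of 9 higher and 1 lower, and of the thalamic 1 of 7 lower. These counts moved with the libraries used. Without WT replicates 3 and 4, 2 astrocytic markers were higher and 1 lower, 1 microglial marker was higher, 0 endothelial markers were, glutamatergic markers gave 3 higher and 1 lower, and striatal ones 0 higher and 1 lower. Without both replicates numbered 4, 1 microglial marker was higher, endothelial markers gave 0 higher and 1 lower, glutamatergic ones 2 higher and 2 lower, and striatal ones 0 higher and 1 lower. Of 6 meningeal markers 0 were lower with all libraries, but 3 were without WT replicates 3 and 4, and 3 without both replicates numbered 4. Of 8 hippocampal markers 0 were lower with all libraries and 1 without WT replicates 3 and 4. The choroid plexus list summed to 19.2 to 30.4 CPM in Neat1-/- mice, against 25 to 119.3 CPM in WT mice, and the meningeal list to 86.0 to 119 CPM in Neat1-/- mice, against 37.5 to 245.2 CPM in WT mice. The part of these differences in the values of the 7 subunit genes was not tested.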

How the data were processed

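Frontal cortex RNA from 4 Neat1-/- and 5 WT mice was sequenced from libraries depleted of ribosomal RNA. What the authors deposited were read counts for 43629 Ensembl genes, not normalized, and normalized log2 expression values for 13456 of them. Alignment to mm10 with STAR 2.5.0 and counting with HTSeq 0.8.0 are listed in the processing notes of the submitters, while the study's methods name TopHat and Bowtie before HTSeq. The table held 0 entries naming no gene. Names and GRCm38 positions came from GENCODE (97.3% of IDs named), and promoter sequence from RefSeq.

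Counts were tested with edgeR 4.0.16 (R 4.3.3) on 19753 genes kept by filterByExpr, with TMM factors and a model of genotype and age in months (glmQLFTest, Benjamini-Hochberg adjustment over all genes). The common biological coefficient of variation was 0.0922. The study used limma with age. Single genes were compared by two-sided exact permutation tests. Alternatives were DESeq2 1.42.0, limma 3.58.1, other size factors, filters, age terms, a replicate block, the deposited log2 values and left-out libraries. No 2 libraries of a genotype were duplicates. On simulated counts of 19753 genes, 25 of 50 genes changed 1.25-fold and 30 of 50 changed 1.5-fold were called, and 11 of 19553 unchanged genes. The changed genes were picked from all tested genes, not matched in level to the subunit genes. Counts were drawn independently for each library, without the likeness between some libraries described above. Intervals cover the spread between libraries. Summaries and figures were made in Python 3.11.15 with SciPy 1.17.1, pandas 2.3.3, Matplotlib 3.10.9 and NumPy 2.4.6.

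Named genes were the 7 subunits, Neat1, 9 other GABA-A subunits, and from each GABA, chloride, interneuron and progenitor list up to 4 with an unadjusted p under 0.05 or else the 2 of highest CPM. Also named were the genes most like each of the 7, the rest of the progenitor list, and cerebellar genes chosen after their values were seen. Other cell type lists are given by counts and summed CPM. Some other subunits and partner genes are not reported here. The 7 genes and the lists were chosen with earlier results of these data known.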

Additional observations from a re-analysis of the deposited data

Results flagged for a closer look

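In each genotype, the highest and the lowest CPM of 32 genes were compared with the next mouse (Dixon's test at 95%). Of 64 groups, 6 held a mouse far from the others. Chance gives about 1 in 20 groups for values that vary smoothly, a rate that does not hold for the genes of few counts among the 6. Gabra6 was at 3.60 CPM in Neat1-/- replicate 4, against at most 0.0778 CPM in the other Neat1-/- mice, and at 1.12 CPM in WT replicate 4, against at most 0.172 CPM in the other WT mice. Gabrr3 was at 0.114 CPM (7 counts) in Neat1-/- replicate 4, and Gabrr1 at 0.172 CPM (9 counts) in Neat1-/- replicate 5. Gabrp had 1 count in all, in WT replicate 5 (0.0164 CPM). Olig1 was at 46.7 CPM in WT replicate 1, against 40.1 to 41.3 CPM in the other WT mice. None of the 7 subunit genes described had such a mouse in either genotype.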

How the results depend on the processing

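None of the 22 alternatives, planned or added, brought any of the 7 subunit genes to an unadjusted p under 0.05, and the lowest was 0.0578, for Gabra4. Over 154 values the 7 genes changed sign 24 times, with no value above 0.0806 in size and none above 0.0251 where the sign changed. Gabra4, Gabrb1 and Gabrd kept their sign throughout. The log2 fold change had the other sign by limma for Gabra2 (-0.0020) and Glra2 (-0.017), with library size alone for Gabra2 (-0.0078), with upper quartile factors for Gabra2 (-0.012), Gabra3 (-0.0022) and Glra2 (-0.0037), with at least 1 CPM in 4 libraries for Gabra2 (-0.0083). It also had the other sign from the deposited log2 values for Gabra2 (-0.025), Gabra3 (-0.0055), Gabrb2 (0.0077) and Glra2 (-0.070), without WT replicates 3 and 4 for Gabra2 (-0.024), Gabra3 (-0.0091), Gabra5 (-0.0040), Gabrb2 (0.0077) and Glra2 (-0.113), without both replicates numbered 4 (chosen after seeing the data) for Gabra5 (-0.020), Gabrb2 (0.0023), Glrb (0.0081) and Glra2 (-0.074), without a filter for Gabrb2 (0.0012) and Abat (0.0032), with age as a factor for Abat (0.0048). With each library left out in turn, log2 fold changes ran from -0.022 to 0.022 for Gabra2, -0.0081 to 0.036 for Gabra3, -0.014 to 0.048 for Gabra5, -0.013 to 0.037 for Gad1, -0.029 to 0.018 for Abat, -0.034 to 0.0045 for Glrb and -0.055 to 0.077 for Glra2. The age terms ran from -0.0036 to 0.028 for Gabra3, -0.014 to 0.021 for Gabra5 and -0.027 to 0.0034 for Gabrb1 per month, and that of Gabra5 was -0.0034 without both replicates numbered 4. The difference in CPM, Neat1-/- minus WT, turned to -0.408 for Gabra2 with library size alone, and without WT replicates 3 and 4 to -0.722 for Gabra2, -0.168 for Gabra3 and 0.914 for Gabrb2. Over all genes, 14 were called between genotypes, against 76 by DESeq2, 22 by limma, 76 without a filter, 183 from the deposited log2 values, and 8 to 30 with a library left out. At an unadjusted p the count was 1639, against 1087 without both replicates numbered 4 and 1037 to 2879 with a library left out. For age it was 0, against 4 by DESeq2, 1 by limma, 2 without WT replicates 3 and 4 and 0 to 1 with a library left out. The cause of these shifts was not tested. Deviations of same-numbered mice correlated at 0.044, -0.0447, 0.137 and -0.0773, and only the mice numbered 4 matched each other best. These correlations cannot show whether same-numbered mice were handled together. A replicate block gave 12 called genes, 0 of the 7 among them, with the sign turned for Gabrb2 (0.0009), Gabbr1 (0.0015) and Glra2 (-0.0005). Genes of few counts, such as Gabrr2, have wide intervals that depth limits.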
